A study of Sinocyclocheilus angustiporus and Sinocyclocheilus anophthalmus with 4 samples.

Results

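Connexins are the subunits of gap junctions, the channels through which neighbouring cells of vertebrates exchange ions and small molecules. Rows of 2 deposited eye tables were taken as connexins where their name held "connexin" or "gap junction protein", which gave 7 of 9649 rows. The tables come from whole eyes of adult Sinocyclocheilus anophthalmus, a cavefish, and of adult Sinocyclocheilus angustiporus, a surface fish, both freshwater fish of the carp family. Each eye was represented by 1 library, made with 2 individuals used per species, and the labels do not say whether their RNA was pooled. The labels name no sex, hour of sampling or light condition, and 1 species per habitat was sampled, so habitat, species and library cannot be told apart. Brain libraries of both fish are labelled too and were not analysed here. The comparison asks how the eye transcriptome of a fish living in constant darkness differs from that of a surface relative.

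Tissues of the eye differ in the connexins they use, and some connexins are shared between tissues. The lens has no blood vessels, and its fibre cells depend on gap junctions for the circulation of ions and metabolites; in mammals, mutations of the lens fibre connexins cause cataract. In the retina, connexins form the electrical synapses between neurons and couple horizontal cells into sheets, while glia and pigment epithelium are joined by connexins of wider use. Beta connexins join cells of the epidermis, the corneal epithelium and the liver in mammals.

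The 2 listed lens connexins were higher in the cavefish eye, and connexin 55.5, a connexin of horizontal cells, was lower. Values are RPKM, reads scaled to the length of the transcript and to the mapped reads of the library, so that levels of different rows share a scale per length. The pair of lens connexins summed to 18.95 RPKM in the cavefish eye and 3.49 RPKM in the surface fish eye. The 3 neuronal connexins summed to 14.49 RPKM in the cavefish eye and 23.57 RPKM in the surface fish eye. No row was listed with under 5 RPKM in both eyes. Both of these lens connexins and connexin 55.5 reached 5 RPKM only in the eye where they were higher. Their directions therefore come with their listing. Connexin 43, the most abundant connexin of both eyes, was within 2-fold between them. With 1 library per eye there is no replicate check, no error between animals and no p-value for any difference below. The depth is unknown.

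Ratios are given as log2((cavefish RPKM + 1) / (surface fish RPKM + 1)), which understates the change of low values, and a ratio past 1 or -1 is called 2-fold. By this measure 3 connexins were higher in the cavefish eye, 1 was lower and 3 lay within 2-fold. Over all 9649 rows, 3.83% were higher and 10.1% lower. The median log2 ratio was 0.71 over the 7 connexins and -0.27 over all rows. These summaries carry a selection of the tables. In every row the larger value was 5 RPKM at least, so a row under 5 RPKM in one eye is listed through the other eye alone. Of the 7 connexins, 6 were such rows: 4 were listed through the cavefish eye and 2 through the surface fish eye. Among the 1930 rows under 5 RPKM in 1 eye, 9.9% were higher and 15.4% lower in the cavefish eye by 2-fold. Rows listed through either eye are pooled here, and each could pass 2-fold only toward the eye that listed it. The share among rows listed through the cavefish eye alone is not given, so the 9.9% is no like background for the higher connexins. Among the 5380 rows whose larger value was 15 RPKM at most, as it was for 6 of the connexins, 3.25% were higher and 5.65% lower. The counts of connexins are a description and no support for a change of the family.

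**Figure D1:**
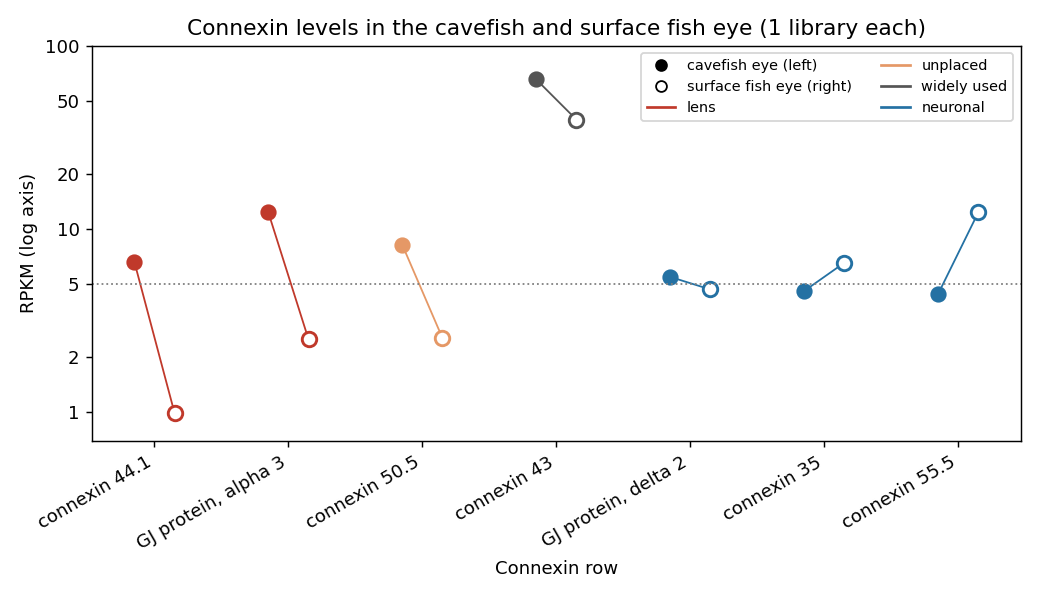
RPKM of the 7 connexin rows on a log axis, with the cavefish eye as a filled point on the left and the surface fish eye as an open point on the right (1 library each, no error bars); colours mark the classes and the dotted line marks 5 RPKM. The 3 rows on the left and the delta 2 row lie above 5 RPKM in the cavefish eye and below it in the surface fish eye. Connexin 55.5 and connexin 35 run the other way.

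Gap junction protein alpha 3 is a lens fibre connexin in mammals, where its loss gives cataract. It stood at 12.33 RPKM in the cavefish eye, against 2.5 RPKM in the surface fish eye, a log2 ratio of 1.93. Without the pseudocount this is 4.93-fold. Its level was above that of 59.7% of all rows in the cavefish eye and above 1.02% of them in the surface fish eye. It is in the tables through its cavefish value alone, so a difference of this direction comes with its listing.

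Connexin 44.1 carries the name of a zebrafish connexin of lens and ovary. It had 6.62 RPKM in the cavefish eye, against 0.99 RPKM in the surface fish eye, a log2 ratio of 1.94 and a 6.69-fold difference without the pseudocount. This was the lowest connexin level of either library. The cavefish value lies near the minimum of 5 RPKM that lists a row. Relative to alpha 3 of the same eye, connexin 44.1 stood at 0.537 in the cavefish and 0.396 in the surface fish, and so was below it in both libraries. Like alpha 3, connexin 44.1 is listed through its cavefish value alone, so the direction of its difference comes with its listing.

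Connexin 50.5 was placed in no class, because its name alone does not give a tissue. It had 8.20 RPKM in the cavefish eye, against 2.54 RPKM in the surface fish eye, a log2 ratio of 1.38. The difference was 3.23-fold without the pseudocount. Its level lay between those of alpha 3 and connexin 44.1 in the cavefish eye, and beside that of alpha 3 in the surface fish eye. These 3 connexins are the ones higher by 2-fold, and all 3 were under 5 RPKM in the surface fish eye.

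Connexin 43 is used in many tissues, among them astrocytes, retinal glia, pigment epithelium, lens epithelium, vessels and bone. It had 65.59 RPKM in the cavefish eye and 39.58 RPKM in the surface fish eye, a log2 ratio of 0.71. It was the only connexin at 5 RPKM or more in both eyes. More abundant than 93.6% of all rows in the cavefish eye and 85.3% in the surface fish eye, it made up 61.2% of the summed connexin RPKM of the cavefish and 57.2% of that of the surface fish. Its ratio came to 0.98 to 1.02 under 3 other scalings of the libraries, and reached 2-fold with quantile normalization, at 1.02.

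Connexin 55.5 is known from zebrafish as a connexin of retinal horizontal cells, which feed back onto photoreceptors. It had 4.42 RPKM in the cavefish eye, against 12.34 RPKM in the surface fish eye, a log2 ratio of -1.30. The level in the surface fish was 2.79-fold that in the cavefish without the pseudocount, and the row is listed through the surface fish eye alone. It was the second most abundant connexin of the surface fish eye and the least abundant of the cavefish eye. With each of the 3 other scalings its ratio stayed past 2-fold, at -1.07 to -1.03.

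Connexin 35 is the fish counterpart of the connexin that forms most electrical synapses of mammalian neurons, and the row named gap junction protein delta 2 bears the name of that mammalian gene. Connexin 35 had 4.59 RPKM in the cavefish eye and 6.55 RPKM in the surface fish eye, a log2 ratio of -0.43. The delta 2 row had 5.48 RPKM in the cavefish eye and 4.68 RPKM in the surface fish eye, a log2 ratio of 0.19. Both lay within 2-fold and had opposite signs, and all 4 values were within 2 RPKM of the minimum for listing. How reads matching related rows were treated is not stated, so the split between these 2 rows is uncertain. Their sum was 10.07 RPKM in the cavefish eye and 11.23 RPKM in the surface fish eye. Of the class difference in summed RPKM, the larger part lay in connexin 55.5, which is listed through the surface fish eye alone.

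**Figure D2:**
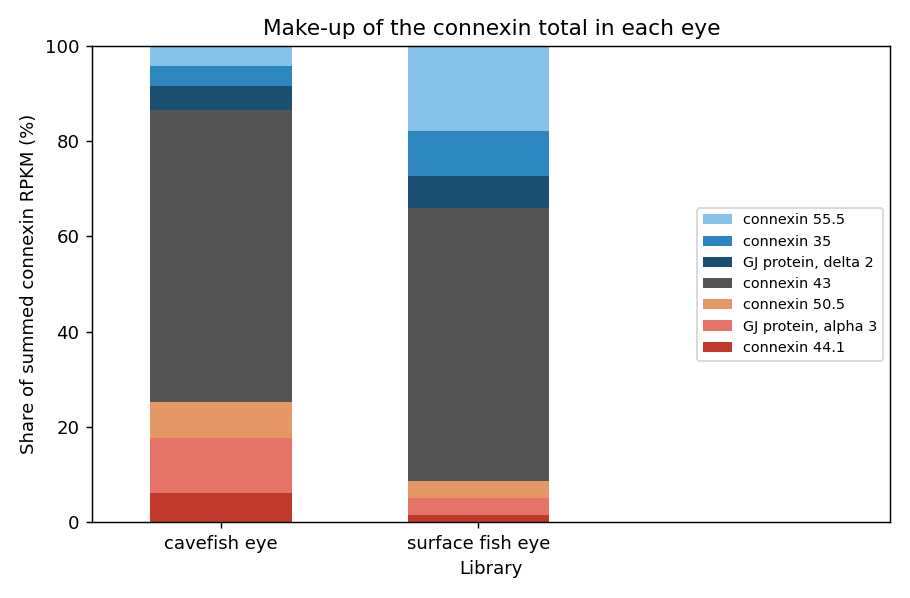
Share of each connexin in the summed RPKM of the 7 connexin rows, in percent, for the cavefish eye (left bar) and the surface fish eye (right bar), 1 library each. Connexin 43 takes the largest share of both bars; lens connexins take 17.7% of the cavefish bar and 5.04% of the surface fish bar, and neuronal connexins take 13.5% of the cavefish bar and 34.1% of the surface fish bar.

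The order of the connexins differed between the eyes below connexin 43. In the cavefish eye it ran from connexin 43 through alpha 3, connexin 50.5, connexin 44.1, delta 2 and connexin 35 to connexin 55.5. In the surface fish eye it ran from connexin 43 through connexin 55.5, connexin 35, delta 2, connexin 50.5 and alpha 3 to connexin 44.1. With 1 library per eye no neighbours in these orders can be called different. All 7 together summed to 107.23 RPKM in the cavefish eye and 69.18 RPKM in the surface fish eye. Without connexin 43 the sum was 41.64 RPKM in the cavefish eye and 29.6 RPKM in the surface fish eye.

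Multiplying a whole library by a constant leaves the ratios between connexins within an eye as they are, while quantile normalization changes them. Alpha 3 stood at 2.79 times connexin 55.5 in the cavefish eye, against 0.203 times in the surface fish eye, a 13.8-fold difference. Connexin 43 stood at 5.32 times alpha 3 in the cavefish eye and 15.8 times in the surface fish eye. Against connexin 55.5, connexin 43 stood at 14.8 times in the cavefish eye and 3.21 times in the surface fish eye. Alpha 3 and connexin 55.5 were taken after their values had been seen, and each is listed only through the eye in which it is high, so their opposite order in the 2 eyes is a description.

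**Figure D3:**
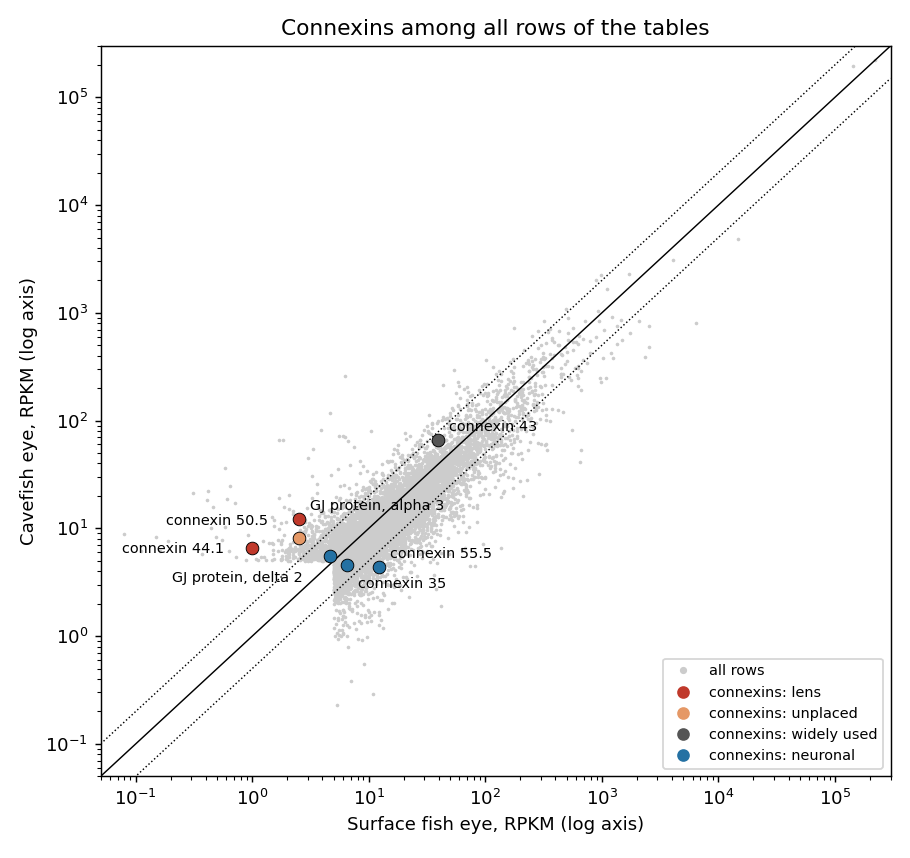
RPKM of all 9649 rows (grey) and of the 7 connexins (coloured by class) in the cavefish eye (vertical log axis) and the surface fish eye (horizontal log axis); the solid line marks equal values and the dotted lines a 2-fold difference without pseudocount. The empty lower left corner shows that no row is under 5 RPKM in both eyes, and 6 of the 7 connexins lie in the strips where 1 eye is under 5 RPKM.

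Epithelial connexins could not be compared. No row with a beta connexin name was among the 7, and none with a gamma name, so all 7 fell to the alpha and delta connexins or to names that give only a size. A connexin under 5 RPKM in both eyes would not be listed, and other names were not searched, so no level is given for them. Markers of cornea and skin epithelium were measured. Of these 8 markers, 7 were lower by 2-fold in the cavefish eye and none was higher, with a median log2 ratio of -2.04. Over all rows 10.1% were lower and 3.83% higher. The same 7 markers were lower under the 3 other scalings. The part of the amount of cornea or skin in each eye sample was not tested. Keratin 5 (krt5), a filament protein of basal epithelial cells, had 53.26 RPKM in the cavefish eye and 660.2 RPKM in the surface fish eye. In the cavefish eye 3 of the 8 markers were under 5 RPKM, epcam at 4.46, cdh1 at 3.97 and tp63 at 1 RPKM, and these are listed through the surface fish eye alone.

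Markers of the tissues that use these connexins were set beside them. The eye markers were present in both libraries, with 7 of 7 photoreceptor genes and 11 of 12 lens fibre genes measured. In a whole eye, fewer cells of a type and less RNA per cell cannot be told apart. The lens fibre list had a median log2 ratio of 0.96, with 5 of 11 genes higher by 2-fold and none lower, and ranged from -0.60 to 1.95. Under the 3 other scalings 7 of the 11 were higher and the median was 1.23 to 1.25. As deposited, the lens connexins lay at the upper end of the range of the list. The lens water channel gene mipb (1.95) had a like ratio, and the membrane protein gene lim2.5 a smaller one (0.96). Per 1000 RPKM of mipb, alpha 3 stood at 53.8 RPKM in the cavefish eye and 42.6 RPKM in the surface fish eye, and connexin 44.1 at 28.9 RPKM in the cavefish eye and 16.9 RPKM in the surface fish eye. Per 1000 RPKM of lim2.5, alpha 3 stood at 18.4 RPKM in the cavefish eye and 7.28 RPKM in the surface fish eye. Over all 11 lens fibre genes as denominators, alpha 3 was 1.26-fold to 7.46-fold higher in the cavefish eye, with a median of 2.53-fold; mipb gave the lowest value and the crystallin gene cryba1a the highest. Connexin 44.1 was likewise higher against all 11, by 1.71-fold to 10.1-fold (median 3.43-fold). Connexin 50.5 was higher against 10 of the 11, with a median of 1.66-fold, and lower against mipb (0.826). None of the 11 lens fibre genes was under 5 RPKM in 1 eye, whereas these 3 connexins are listed through the cavefish eye alone. Higher values of the connexins against the list therefore carry the selection by listing. The part of lens tissue in these results was not tested. Markers of skeletal muscle, a tissue that can come with a dissected eye, were higher in the cavefish eye. All 4 were past 2-fold as deposited and under the 3 other scalings, with a median log2 ratio of 1.59 as deposited. They summed to 1759.42 RPKM in the cavefish eye and 574.35 RPKM in the surface fish eye, and the part of muscle in the connexin levels was not tested.

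**Figure D4:**
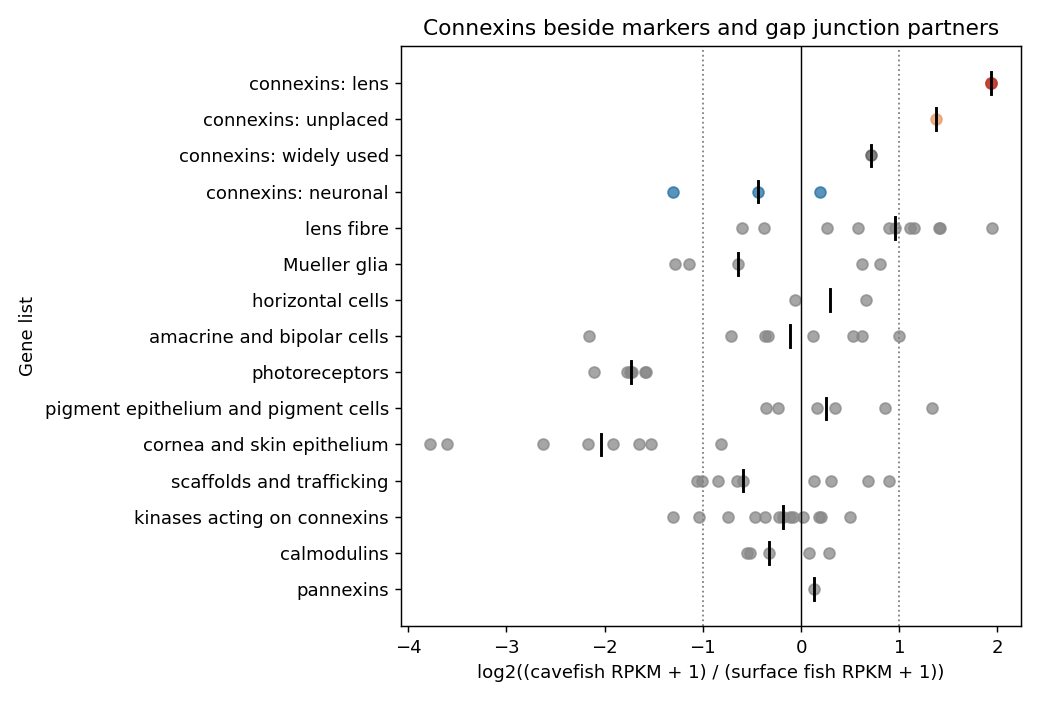
log2((cavefish RPKM + 1) / (surface fish RPKM + 1)) of each connexin by class (coloured), of marker lists and of gap junction partner genes (grey); each point is a gene, black bars are medians and dotted lines mark 2-fold. Lens connexins sit at the right end of the lens fibre list, while connexin 55.5 lies between the horizontal cell markers and the photoreceptor markers.

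Photoreceptor markers had a median log2 ratio of -1.73, and all 7 were lower by 2-fold, of which 6 with quantile normalization, where rhodopsin (rho) has the same rank in both eyes. Of 5 horizontal cell markers 2 were measured, prox1a at 0.66 and the calretinin gene calb2b at -0.06. Both genes are also made in other cells of the eye, so ratios to them are not specific to horizontal cells. Neither lhx1a nor onecut1, which mark horizontal cells more closely, was matched to a row. Per 1000 RPKM of prox1a, connexin 55.5 stood at 227 RPKM in the cavefish eye and 1030 RPKM in the surface fish eye. Per 1000 RPKM of the cone transducin gene gnat2, it stood at 35.1 RPKM in the cavefish eye and 29.2 RPKM in the surface fish eye. Connexin 55.5 was lower in the cavefish eye against both measured horizontal cell markers, at 0.220 and 0.377 times the surface fish value. It was higher against all 7 photoreceptor markers, by 1.07-fold to 1.55-fold. None of these markers was under 5 RPKM in 1 eye, whereas connexin 55.5 is listed through the surface fish eye alone. Its lower values against the horizontal cell markers therefore carry the selection by listing. The part of horizontal cells in these ratios was not tested. Amacrine and bipolar cell markers had a median of -0.11 over 8 genes, with 1 lower by 2-fold, and connexin 35 and delta 2 lay on either side of it. This median was 0.16 to 0.20 under the 3 other scalings.

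Of 5 measured Mueller glia markers, 2 were lower by 2-fold and none was higher, and their log2 ratios ran from -1.28 to 0.80; under the 3 other scalings gfap was higher by 2-fold and glulb alone lower. Connexin 43, at 0.71, lay between the retinoid carrier gene rlbp1a (0.62) and the glial filament gene gfap (0.80), and above the glutamine synthase and carbonic anhydrase genes glula (-0.64), glulb (-1.28) and cahz (-1.14). Per 1000 RPKM of gfap, connexin 43 stood at 526 RPKM in the cavefish eye and 556 RPKM in the surface fish eye. Per 1000 RPKM of glula, it stood at 905 RPKM in the cavefish eye and 348 RPKM in the surface fish eye. Over all 5 markers the cavefish value was 0.945 to 4.25 times that of the surface fish, with a median of 2.6. The level of connexin 43 relative to this list thus depends on the marker. Whole eyes do not show whether each of these genes was made by glia alone. Vessel markers, from cells that also use connexin 43, had log2 ratios of -0.48 and -0.36. Pigment epithelium and pigment cell markers had a median of 0.25 over 6 genes, with 1 higher by 2-fold as deposited and 2 under the 3 other scalings. Relative to these 6 genes, connexin 43 in the cavefish eye was 0.624 to 2.13 times the surface fish value, and above 1 for 4 of them. It was 2.15 to 2.42 times relative to the 2 vessel markers. Relative to the 4 muscle markers it was lower in the cavefish eye, at 0.303 to 0.786 times. Setting connexins against marker genes was chosen after the values had been seen, and the part of each cell type in the level of connexin 43 was not tested.

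Other genes of gap junctions were listed by role, and 28 of 39 were measured. As deposited none was higher by 2-fold and 4 were lower, with a median log2 ratio of -0.20 beside -0.27 over all rows. Over all rows 3.83% were higher and 10.1% lower by 2-fold. The counts of partner genes are a description and no support for a change of these genes as a group. Under the 3 other scalings 1 was higher (cdh2) and 1 lower (camk2d1), with a median of 0.04 to 0.07. Pannexin 1 (panx1a), of a family of membrane channels related in shape to connexins, had 6.42 RPKM in the cavefish eye and 5.78 RPKM in the surface fish eye. Among 9 scaffold and trafficking genes, 2 were lower by 2-fold. They were tjp2a, a tight junction scaffold (7.58 RPKM in the cavefish eye and 16.22 RPKM in the surface fish eye), and ezrb, the row named ezrin like, of a family that ties membrane proteins to actin (3.56 RPKM in the cavefish eye and 8.51 RPKM in the surface fish eye). The zona occludens 1 gene tjp1a, whose protein binds the tail of connexin 43, had 44.85 RPKM in the cavefish eye and 36.18 RPKM in the surface fish eye, a log2 ratio of 0.30. N-cadherin (cdh2), which holds lens and neural cells together, had the highest ratio of the scaffold list, 0.89.

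Kinases that act on connexins had a median log2 ratio of -0.18 over 13 genes, with 2 lower by 2-fold. Both encode calcium and calmodulin dependent kinase II, which modifies the neuronal connexins. Of these, camk2d1 had 9.35 RPKM in the cavefish eye and 24.62 RPKM in the surface fish eye. The other, camk2g1, had 59.72 RPKM in the cavefish eye and 123.57 RPKM in the surface fish eye. Further genes of this kinase lay within 2-fold. They were camk2b1, with the highest log2 ratio of the kinase list (0.50), and camk2d2 (-0.11). The genes of this kinase thus had unlike ratios, with 1 library per eye. Under the other scalings camk2d1 alone of the kinase list was lower by 2-fold. Calmodulin, which binds several connexins, had 5 of its 6 listed genes measured, with log2 ratios from -0.55 to 0.29, none past 2-fold. A further row named Calmodulin (CaM) was not matched to the list. It had 20.66 RPKM in the cavefish eye and 25.29 RPKM in the surface fish eye. The ratios of the 28 partner genes ran from -1.31 for camk2d1 to 0.89 for cdh2. The lens connexins lay above this range and connexin 55.5 at its lower end. Of the 28 partner genes 1 was under 5 RPKM in 1 eye, whereas these connexins all were. The comparison is thus of rows listed in unlike ways.

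**Figure D5:**
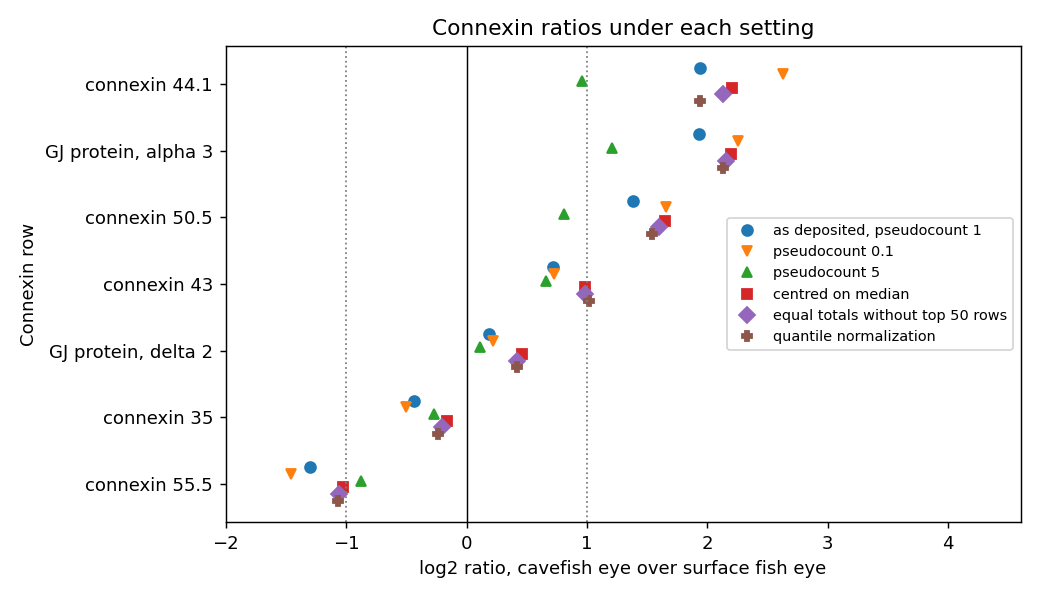
log2 ratio of each connexin between the cavefish eye and the surface fish eye as deposited with a pseudocount of 1, with pseudocounts of 0.1 and 5, and under 3 other scalings; dotted lines mark 2-fold. No connexin changes sign, which a pseudocount could not bring about, and with a pseudocount of 5 alpha 3 alone stays past 2-fold.

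All 7 connexins kept their sign under the 5 pseudocounts and scalings tried as alternatives. A pseudocount cannot change a sign, so only the scalings could have done so. Centring and equal totals raised every connexin ratio, so they could have turned only a negative one. With a pseudocount of 5, connexin 44.1 came to 0.96, connexin 50.5 to 0.81 and connexin 55.5 to -0.88, all within 2-fold. Alpha 3 ranged from 1.21 to 2.26 over these alternatives and was past 2-fold in each.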

How the data were processed

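The members, lists and classes were chosen with earlier results of these data known. The authors deposited 1 table of RPKM values per eye, with 9649 rows of descriptive gene names in the same order, per the file headers; 64 names occurred on more than 1 row, none of them a connexin. Per the submitters' processing notes Bowtie 0.12.2 was among the tools; its role, the reference, the transcript lengths, the filters and the treatment of reads matching several rows are not stated in the sources used here. Per the labels' protocols, polyadenylated RNA of whole eyes was sequenced in pairs on an Illumina Genome Analyzer or HiSeq; which library ran on which is not stated. RPKM summed to 665573.62 in the cavefish eye and 684735.55 in the surface fish eye; depth is unknown. Every connexin is named. Classes were set by name: lens (alpha 3, alpha 8 and epsilon genes), neuronal (delta genes and horizontal cell connexins), epithelial (beta) and widely used (connexin 43, gamma and other alpha genes). Lists held zebrafish symbols matched to row names; of repeated matches the row with the larger sum was used. A pseudocount of 1 RPKM was added. No test was made with 1 library per eye. The computation was checked on known input. Alternatives were pseudocounts of 0.1 and 5, a minimum of 10 RPKM, 3 scalings (centring on the median, equal totals without the 50 most abundant rows of either eye, quantile normalization), 4-fold, and summed rows. Python 3.11.15, numpy 2.4.6, pandas 2.3.3 and matplotlib 3.10.9 were used.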

Additional observations from a re-analysis of the deposited data

How the results depend on the processing

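Of 35 connexin ratios recomputed under 5 alternatives, 31 kept their side of 2-fold, 3 came under it with a pseudocount of 5, and 1, that of connexin 43, passed it with quantile normalization, at 1.02; the construction of a larger pseudocount shrinks low values. Counts of connexins past 2-fold were 3 higher and 1 lower as deposited. They were 1 and 0 with a pseudocount of 5, and 0 and 0 at 4-fold. With rows reaching 10 RPKM in either eye, 3 connexins were left, of which 1 was higher and 1 lower. Over all rows that reached 10 RPKM in either eye, 256 were higher and 809 lower. With rows at 5 RPKM or more in both eyes, an alternative chosen after seeing the data, connexin 43 alone was left and the counts were 0 and 0. Under the 10 RPKM minimum the lens sum was 12.33 RPKM in the cavefish eye, and the neuronal sum 4.42 RPKM in the cavefish eye and 12.34 RPKM in the surface fish eye, because fewer rows entered. Over all rows, 370 were higher and 974 lower as deposited. The counts were 173 and 517 with a pseudocount of 5, 647 and 536 after centring on the median, 607 and 560 with equal totals, 597 and 559 with quantile normalization, and 58 and 124 at 4-fold. They were 179 and 677 with rows at 5 RPKM or more in both eyes, 191 and 297 among rows under 5 RPKM in 1 eye, and 175 and 304 among rows of at most 15 RPKM, the last 3 chosen after seeing the data. The median of all rows moved to 0.00 by centring, -0.02 by equal totals and -0.02 by quantile normalization. Summing rows of the same name could change no connexin, since none has a repeated name. No paired analysis was possible because each group has 1 library. Precision is limited by 1 library per eye and by unknown depth behind values near 5 RPKM.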
